A study of Mus musculus with 12 samples.

Results

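Protocadherins were taken from the gene table of an RNA-seq study of TT2, an embryonic stem (ES) cell line of the mouse, as every gene whose name starts with Pcdh. This gave 66 of 17901 genes. They fall into 12 non-clustered genes, 11 genes of the Pcdha cluster, 22 of the Pcdhb cluster and 21 of the Pcdhg cluster. Wild-type cells (WT) were compared with cells that lack both Rlf and Zfp292, a pair of zinc finger protein genes (double knockout, DKO). Each genotype was grown in ES medium that contained LIF (called serum/LIF), and was also kept for 72 hours in the same medium without LIF and with 5 µM retinoic acid (RA). There were 3 libraries in each of the 4 groups, and the labels call them biological replicates. The labels do not say whether the DKO libraries came from 1 clone or from several, so a difference between genotypes cannot be told apart from a difference between clones. The protocol names total RNA, although the labels list the molecule as genomic DNA.

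Protocadherins are the largest group of cadherins, cell-surface proteins with extracellular cadherin repeats that bind the same protein on a neighbouring cell. The clustered genes lie head to tail in tandem arrays. In Pcdha and Pcdhg each variable first exon has a promoter of its own and is spliced to constant exons that the whole cluster shares, while each Pcdhb gene is a single exon. Neurons express different combinations of these variable exons, whose promoters are looped to distant enhancers by CTCF and cohesin and are silenced by DNA methylation, whereas the C-type isoforms at the ends of the clusters are expressed more uniformly. The non-clustered genes each have one locus of their own. They include the delta-1 group (Pcdh1, Pcdh7, Pcdh9 and Pcdh11x) and the delta-2 group (Pcdh8, Pcdh10, Pcdh17, Pcdh18 and Pcdh19), which differ in the number of cadherin repeats and in the motifs of the cytoplasmic tail, and they act in axon growth, cell sorting and tissue boundaries.

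RefSeq promoters (GRCm38.p6, the assembly of mm10) were matched by symbol for 9 of the non-clustered genes. The 250 bases before the start of the 5 delta-2 genes are shown because several of them moved together in the libraries, with Pcdh7 as a delta-1 gene that also moved. The capitals mark CCAAT or, where the motif lies on the opposite strand, ATTGG.
Pcdh8, chr14:79771313-79771562, - strand: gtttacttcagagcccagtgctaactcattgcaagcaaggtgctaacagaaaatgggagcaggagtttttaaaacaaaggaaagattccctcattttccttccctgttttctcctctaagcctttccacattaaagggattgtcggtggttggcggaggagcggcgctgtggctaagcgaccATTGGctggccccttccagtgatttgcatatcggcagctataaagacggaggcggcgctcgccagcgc
Pcdh10, chr3:45378148-45378397, + strand: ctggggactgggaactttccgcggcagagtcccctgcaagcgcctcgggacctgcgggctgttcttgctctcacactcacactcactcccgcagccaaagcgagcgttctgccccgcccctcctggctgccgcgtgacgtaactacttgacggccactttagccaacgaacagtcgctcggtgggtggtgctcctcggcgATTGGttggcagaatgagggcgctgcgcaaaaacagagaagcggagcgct
Pcdh17, chr14:84443313-84443562, + strand: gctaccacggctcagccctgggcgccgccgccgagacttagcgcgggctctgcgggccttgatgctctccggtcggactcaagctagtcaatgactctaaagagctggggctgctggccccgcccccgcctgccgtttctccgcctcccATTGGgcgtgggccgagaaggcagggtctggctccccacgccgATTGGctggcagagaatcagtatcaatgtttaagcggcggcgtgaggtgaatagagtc
Pcdh18, chr3:49757317-49757566, - strand: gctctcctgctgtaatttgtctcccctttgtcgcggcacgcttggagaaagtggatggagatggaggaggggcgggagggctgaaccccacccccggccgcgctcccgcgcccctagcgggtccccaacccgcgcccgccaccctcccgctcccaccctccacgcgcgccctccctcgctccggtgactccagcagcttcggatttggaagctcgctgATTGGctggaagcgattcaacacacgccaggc
Pcdh19, chrX:133688994-133689243, - strand: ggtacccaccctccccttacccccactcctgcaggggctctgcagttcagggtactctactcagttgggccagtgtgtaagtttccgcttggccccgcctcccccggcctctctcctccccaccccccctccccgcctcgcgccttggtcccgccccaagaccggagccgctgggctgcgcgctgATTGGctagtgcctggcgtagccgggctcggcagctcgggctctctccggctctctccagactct
Pcdh7, chr5:57717831-57718080, + strand: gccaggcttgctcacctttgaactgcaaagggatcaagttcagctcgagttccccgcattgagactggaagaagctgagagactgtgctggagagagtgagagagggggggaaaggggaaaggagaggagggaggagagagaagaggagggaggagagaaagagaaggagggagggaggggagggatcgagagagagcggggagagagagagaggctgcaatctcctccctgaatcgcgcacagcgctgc
The motif CCAAT was found on either strand in 8 of the 9 matched genes, which include Pcdh9, Pcdh15 and Pcdh20 beside the delta-2 genes, and not in Pcdh7. In the delta-2 promoters it stood as ATTGG, that is CCAAT on the opposite strand. Its first base lay at -68 in Pcdh8, -50 in Pcdh10, -101 and -58 in Pcdh17, -32 in Pcdh18 and -65 in Pcdh19, counted back from -1 at the base before the start. In Pcdh8, Pcdh17 and Pcdh18 the motif was part of the longer run ATTGGCTGG, which 0.959% of promoters of this length held on either strand. That run was read off these same promoters, so its low share over all promoters is no evidence of a shared element. CCAAT was present on either strand in 33.9% of the 32851 RefSeq promoters, so a match was common, and the motif was chosen after the sequences were seen. GGGCGG was present on either strand in Pcdh10, Pcdh17, Pcdh18 and Pcdh19 and in 32.7% of all promoters. AGGTCA, a core of retinoid receptor sites, was not in any of the 6 windows and was in 14.0% of all promoters. The CpG count was 22 in Pcdh10, 21 in Pcdh17, 23 in Pcdh18, 16 in Pcdh19 and 11 in Pcdh8, against a median of 6 over all promoters, and Pcdh7 with 7 lay near that median. A match describes letters in this window and shows no binding.

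In the table the clusters span chr18:36930285-37188897 (Pcdha), chr18:37264998-37521419 (Pcdhb) and chr18:37661775-37841873 (Pcdhg) of mm10, all on the + strand. Of the non-clustered genes, Pcdh1 and Pcdh12 also lie on chromosome 18. Pcdh10 and Pcdh18 lie on chromosome 3, Pcdh7 on 5, Pcdh15 on 10, Pcdh8, Pcdh9, Pcdh17 and Pcdh20 on 14, and Pcdh11x and Pcdh19 on X.

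The deposited values are normalized counts, that is, whole reads divided by a size factor of the library. The libraries held 30869766 to 40236799 reads in genes. Among genes with 1 to 20 reads, 80.1% to 84.1% of the recovered read numbers were even, as when both reads of a fragment are counted, so 2 reads can come from a single fragment. Rlf had 10999 and 8426 reads in the WT groups in serum/LIF and after RA, against 6 and 1 in the DKO groups. Zfp292 had 14965 and 10237 reads against 0 and 0. One library stood apart. Replicate 2 of WT after RA had chi-square values, divided by their degrees of freedom, of 10.5 and 14.9 when compared with its own replicates. The pair without it gave 5.19, and replicates in the other groups gave 3.28 to 8.29. Of the 118 protocadherin calls described below, 112 were also made without it.

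The test was limma on log2(normalized count + 1), fitted across the 15750 genes that reached a value of 10 in 3 or more libraries, and genes were called where the p adjusted by Benjamini-Hochberg over those genes was under 0.05. Log2 fold changes are given with the standard error (SE) of that fit. They are differences of mean log2(normalized count + 1), so for genes with low values they can lie on either side of the ratio of the group means. They are written DKO against WT or RA against serum/LIF. The filter was passed by 46 protocadherins: 11 of 12 non-clustered genes, 2 of 11 Pcdha, 12 of 22 Pcdhb and all 21 Pcdhg genes. A gene can pass through the group in which it is high, so counts over the 46 describe them and support nothing further. Comparisons that share a group are not independent of each other. Values are given in the order of replicates 1, 2 and 3, which have no order in time.

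Between genotypes 16 of the 46 protocadherins were called in serum/LIF and 12 after RA, and most of the tested non-clustered genes were higher in DKO in serum/LIF. The order of these counts depended on the fit: with only the 2 groups compared, 13 were called higher and 0 lower in serum/LIF, and 12 higher and 9 lower after RA. In DKO against WT in serum/LIF, 15 of the 46 were called higher and 1 lower, beside 17.8% called higher and 15.4% called lower of all genes tested. The median log2 fold change was 0.44 over the 46 and -0.01 over all genes tested. Non-clustered genes made up 8 of the 15. After RA, 8 were called higher and 4 lower, beside 22% and 20.7% of all genes, with a median of -0.15 against 0.01. Both shares after RA were near those of all genes or below them. With RA, 37 of the 46 were called higher and 2 lower in WT, beside 41.4% and 39.2% of all genes, and again 37 and 2 in DKO, beside 40.2% and 38.2%. The medians were 2.27 in WT and 1.56 in DKO, against 0.04 in both over all genes tested. The genotype by RA interaction, which is the DKO against WT difference after RA less the same difference in serum/LIF, was called lower for 10 and higher for 2, beside 16% and 14.8% of all genes. When each library was scaled to the same total, the median of all genes in the RA comparisons shifted to 0.29 in WT and 0.27 in DKO, and the share of higher genes among all called genes went from 51.3% to 63.1% in WT and from 51.3% to 62.9% in DKO. Without the filter, the counts over all 66 were 15 higher and 1 lower in serum/LIF, 8 and 3 after RA, 41 and 2 for RA in WT, 43 and 2 for RA in DKO, and 2 and 9 for the interaction. The authors' deposited table, made with DESeq2, lists 15 protocadherins higher and 0 lower in DKO in serum/LIF, 8 higher and 6 lower after RA, 39 and 1 for RA in WT, and 42 and 2 for RA in DKO, at the same threshold.

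The classes had different summed levels across the groups. The 12 non-clustered genes summed to 1023 ± 60.9 normalized counts (SD, n = 3) in WT in serum/LIF, 2604 ± 193 in DKO in serum/LIF, 3107 ± 56.3 in WT after RA and 3893 ± 141 in DKO after RA. The 4 groups did not overlap, and the DKO sum in serum/LIF was 2.55-fold that of WT. Pcdhg summed to 931 ± 27.9, 1334 ± 148, 3320 ± 261 and 3607 ± 127 in the same order of groups. Its WT and DKO libraries were apart in serum/LIF but overlapped after RA. Pcdhb summed to 67.8 ± 17.8, 81.3 ± 11.2, 419 ± 16.7 and 291 ± 8.57. For Pcdhb the genotypes overlapped in serum/LIF, and after RA all 3 DKO libraries were below all 3 WT libraries, with a mean 0.694 times that of WT. Pcdha summed to 19.0 ± 5.17, 44.9 ± 11.6, 29.4 ± 5.88 and 58.0 ± 10.7, and DKO was above WT in each library of either condition. In bulk RNA, more cells that express a gene and more RNA per cell cannot be told apart.

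**Figure D1:**
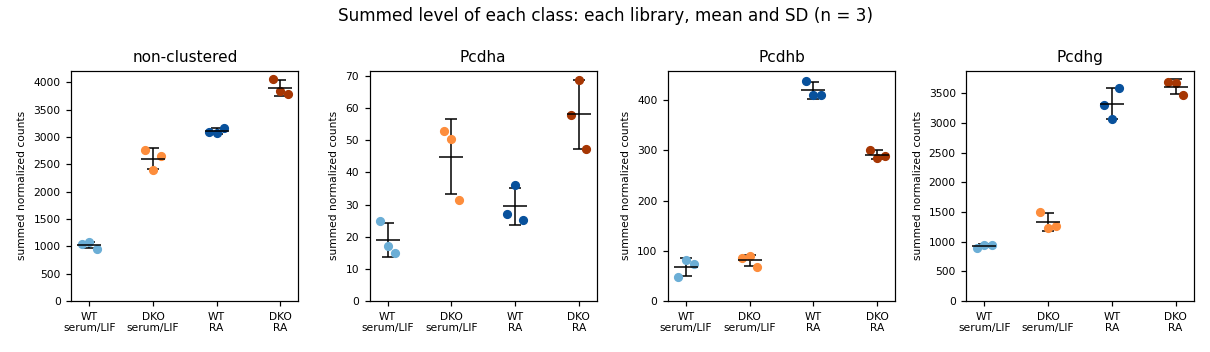
Summed normalized counts of the non-clustered, Pcdha, Pcdhb and Pcdhg genes on linear axes that start at 0. Each point is a library, the long bar is the mean of 3 and the short bars mark 1 SD; Pcdhb after RA is lower in all 3 DKO libraries (mean 291) than in WT (419), while the non-clustered sum is higher in DKO in both conditions.

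Among the delta-2 genes, Pcdh17 had the largest change with genotype in serum/LIF. Pcdh17 (NM_001013753.2, chr14:84443563-84537060) guides the growth of axon bundles by recruiting actin regulators to contacts between axons. In WT in serum/LIF its libraries held 19.1, 4.30 and 11.2 normalized counts, and in DKO 87.1, 131 and 101. After RA, WT held 312, 336 and 378 and DKO 239.9, 286 and 225. The groups in serum/LIF did not overlap, and after RA every DKO library was below every WT library. In serum/LIF Pcdh17 was 9.24-fold higher in DKO (log2 fold change 3.28 ± 0.32, limma adjusted p = 1.25e-07). After RA it was 1.37-fold lower in DKO, which was not called (-0.45 ± 0.32, limma adjusted p = 0.276). The authors' deposited DESeq2 result does list Pcdh17 as lower there (DESeq2 adjusted p = 0.029), so this call depended on the test. RA went with a 29.6-fold higher level in WT (4.97 ± 0.32) and a 2.34-fold higher level in DKO (1.23 ± 0.32). The interaction was -3.73 ± 0.45 (limma adjusted p = 3.33e-06).

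Pcdh18 (NM_130448.3, chr3:49743296-49757316), whose protein binds the adaptor Dab1, had the smallest interaction p of the family. The libraries held 134, 154 and 105 normalized counts in WT and 686, 541 and 575 in DKO in serum/LIF. After RA they held 704, 620.2 and 718 in WT and 479.7, 495 and 462 in DKO. The DKO level in serum/LIF thus lay close to that of WT after RA, and the genotypes changed places between the conditions without overlap in either. Pcdh18 was 4.59-fold higher in DKO in serum/LIF (2.20 ± 0.12) and 1.42-fold lower in DKO after RA (-0.50 ± 0.12, limma adjusted p = 0.0017). With RA it rose 5.21-fold in WT (2.39 ± 0.12) and fell by 0.32 ± 0.12 on the log2 scale in DKO (limma adjusted p = 0.0203). The interaction was -2.71 ± 0.17 (limma adjusted p = 1.84e-11). The small fall in DKO was not called when each library was scaled to the same total, without replicate 1 of DKO in serum/LIF or without replicate 3 of DKO after RA, with values from -0.39 to -0.09 and adjusted p up to 0.532 over the alternatives.

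Pcdh8 (NM_021543.4, chr14:79766772-79771312), also known as paraxial protocadherin and arcadlin, acts in somite formation and at synapses. Its libraries held 15.3, 12.9 and 20.6 in WT and 36.7, 23.5 and 27.0 in DKO in serum/LIF, then 127, 149 and 120.2 in WT and 96.7, 92.8 and 89.5 in DKO after RA. The genotypes did not overlap in either condition, DKO being higher in serum/LIF and lower after RA. The difference in serum/LIF was called (0.80 ± 0.27, limma adjusted p = 0.0225), but not without replicate 2 of WT or replicate 1 of DKO in serum/LIF or with only those 2 groups in the fit (adjusted p up to 0.119). After RA the difference was -0.49 ± 0.27 and was not called (limma adjusted p = 0.141). Pcdh8 rose with RA by 2.96 ± 0.27 in WT and 1.67 ± 0.27 in DKO, and the interaction was called (-1.30 ± 0.38, limma adjusted p = 0.0106). An exon of the opposite-strand gene Gm9748, which is also in the table, overlaps 436 bases of Pcdh8, and whether the counting used strand is not given in the sources used here.

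Pcdh19 (NM_001105246.1, chrX:133582860-133688993) is X-linked, forms mixed contacts with N-cadherin and is mutated in a form of human epilepsy. It held 120.3, 129 and 105 in WT and 183, 198 and 189 in DKO in serum/LIF, then 306, 259 and 330.2 in WT and 412, 307 and 365 in DKO after RA. The genotypes were apart in serum/LIF and overlapped after RA. It was 1.61-fold higher in DKO in serum/LIF (0.69 ± 0.14, limma adjusted p = 0.00041), with a difference of 0.27 ± 0.14 after RA that was not called (limma adjusted p = 0.12). RA raised Pcdh19 in WT (1.33 ± 0.14) and in DKO (0.91 ± 0.14), with no call on the interaction (-0.42 ± 0.20, limma adjusted p = 0.113).

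Pcdh10 (NM_001098172.1, chr3:45378398-45399598) recruits the WAVE actin complex to cell contacts. It was at or close to 0 before RA, with 0, 0 and 3.74 in WT (4 reads over the group) and 2.29, 4.69 and 4.51 in DKO. After RA it held 25.2, 48.2 and 34.1 in WT and 22.8, 41.3 and 41.2 in DKO, and the genotypes overlapped. It rose with RA in WT (4.41 ± 0.62, limma adjusted p = 5.91e-07) and in DKO (2.89 ± 0.62, limma adjusted p = 0.00018). The genotype difference was 1.48 ± 0.62 in serum/LIF (limma adjusted p = 0.0686) and -0.03 ± 0.62 after RA (limma adjusted p = 0.974), neither of which was called.

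Of the delta-1 genes, Pcdh7 and Pcdh1 were called higher and Pcdh9 lower in DKO after RA. Pcdh7 (NM_001122758.2, chr5:57718081-58133235), whose tail binds the phosphatase regulator SET and protein phosphatase 1, was higher in DKO in both conditions. Its libraries held 28.6, 34.4 and 27.1 in WT and 232, 236 and 268 in DKO in serum/LIF, then 254, 279 and 255 in WT and 593, 634 and 524 in DKO after RA. The groups did not overlap between genotypes in either condition. The ratio of DKO to WT was 8.16-fold in serum/LIF (2.99 ± 0.14, limma adjusted p = 3.11e-14, the smallest of the family in that comparison) and 2.22-fold after RA (1.15 ± 0.14, limma adjusted p = 4.53e-07). RA raised it 8.74-fold in WT and 2.38-fold in DKO, and the interaction was -1.85 ± 0.20 (limma adjusted p = 1.31e-07). The antisense gene 4932441J04Rik overlaps 2235 of its exon bases, and reads of the pair cannot be told apart if strand was not used.

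Pcdh1 (NM_029357.3, chr18:38196694-38209762), a delta-1 gene expressed in airway and other epithelia, was the most abundant protocadherin. It held 684, 717 and 673 in WT and 1497, 1223 and 1434 in DKO in serum/LIF, then 1202, 1153 and 1191 in WT and 2110.4, 1864 and 1937 in DKO after RA. The 4 groups did not overlap, and DKO in serum/LIF and WT after RA lay closest, at 1223 and 1202 at their nearest. DKO was 2.00-fold higher in serum/LIF (1.00 ± 0.07) and 1.67-fold higher after RA (0.74 ± 0.07, limma adjusted p = 8.53e-09, the smallest of the family in that comparison). RA raised Pcdh1 by 0.77 ± 0.07 in WT and 0.51 ± 0.07 in DKO. The interaction was at the threshold (-0.26 ± 0.10, limma adjusted p = 0.0489) and was lost in 10 of 20 alternatives, 8 of which left out a library (replicate 1 or 3 of WT in serum/LIF, 1 or 3 of DKO in serum/LIF, 1 or 3 of WT after RA, and 2 or 3 of DKO after RA), with adjusted p up to 0.149. Pcdh1 made up 67.7% ± 2.52 of the non-clustered sum in WT in serum/LIF, 53.1% ± 1.69 in DKO in serum/LIF, 38.1% ± 0.804 in WT after RA and 50.6% ± 1.74 in DKO after RA (SD, n = 3).

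Pcdh9 (NM_001081377.3, chr14:93013700-93890669), a delta-1 gene of cortical and retinal neurons, held 22.9, 6.45 and 7.48 in WT and 11.5, 7.04 and 15.8 in DKO in serum/LIF. After RA it held 62.1, 106 and 43.1 in WT and 29.4, 31.2 and 27.7 in DKO. The genotypes overlapped in serum/LIF, and after RA each DKO library was below each WT library, whose own values were spread widely. Pcdh9 rose with RA in WT (2.54 ± 0.46) and in DKO (1.36 ± 0.46, limma adjusted p = 0.0096), though in DKO not without replicate 2 in serum/LIF (adjusted p = 0.0526). The lower level in DKO after RA was just past the threshold (-1.14 ± 0.46, limma adjusted p = 0.0482) and was lost in 10 of 20 alternatives, with adjusted p up to 0.235. Among these were the fits without replicate 1 of DKO in serum/LIF, without replicate 1 or 2 of WT after RA and without any 1 of the DKO replicates after RA.

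Pcdh11x (NM_001271809.1, chrX:120290327-120910619) had 0 reads in all 3 WT libraries in serum/LIF. DKO held 4.59, 7.04 and 4.51 there, so the level was at least 2.72-fold higher, taking 3 fragments (6 reads) over the WT group as the floor. After RA it held 1.80, 18.1 and 3.59 in WT and 11.4, 18.4 and 30.4 in DKO, and the genotypes overlapped. The differences in serum/LIF (limma adjusted p = 0.0093) and with RA in WT (at least 3.78-fold, limma adjusted p = 0.0030) were called on 14 and 24 reads. Of the 24 reads, 18 came from replicate 2 of WT after RA, the library that stood apart, and the 6 reads without it are no more than the floor, so that no fold can be given (limma adjusted p = 0.0447 without it). After RA the genotype difference of 1.65 ± 0.76 was not called (limma adjusted p = 0.0871), but was called without that library (2.45, limma adjusted p = 0.0211).

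Pcdh20, Pcdh12 and Pcdh15 stand outside the delta groups here. Pcdh20 (NM_178685.5, chr14:88464747-88471396) held 7.64, 2.15 and 1.87 in WT and 16.1, 11.7 and 24.8 in DKO in serum/LIF. After RA it held 81.1, 80.3 and 91.5 in WT and 53.1, 53.3 and 73.4 in DKO. Its pattern had the same order of groups as Pcdh17 and Pcdh8: lowest in WT in serum/LIF, then DKO in serum/LIF, then DKO after RA, and highest in WT after RA, with no overlap between any of these. The genotype difference was 2.05 ± 0.42 in serum/LIF (limma adjusted p = 0.00045), -0.50 ± 0.42 after RA (not called, limma adjusted p = 0.357), and the interaction was -2.55 ± 0.59 (limma adjusted p = 0.0018). Pcdh12 (NM_017378.2, chr18:38267092-38284401), a gene of endothelium and of trophoblast glycogen cells, stayed between 0 and 17.9 and was not called in any comparison. Pcdh15 (NM_001142742.1, chr10:73821867-74644727), part of the tip link of hair cells, did not pass the filter and had 0, 2, 6 and 6 reads in the 4 groups.

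**Figure D2:**
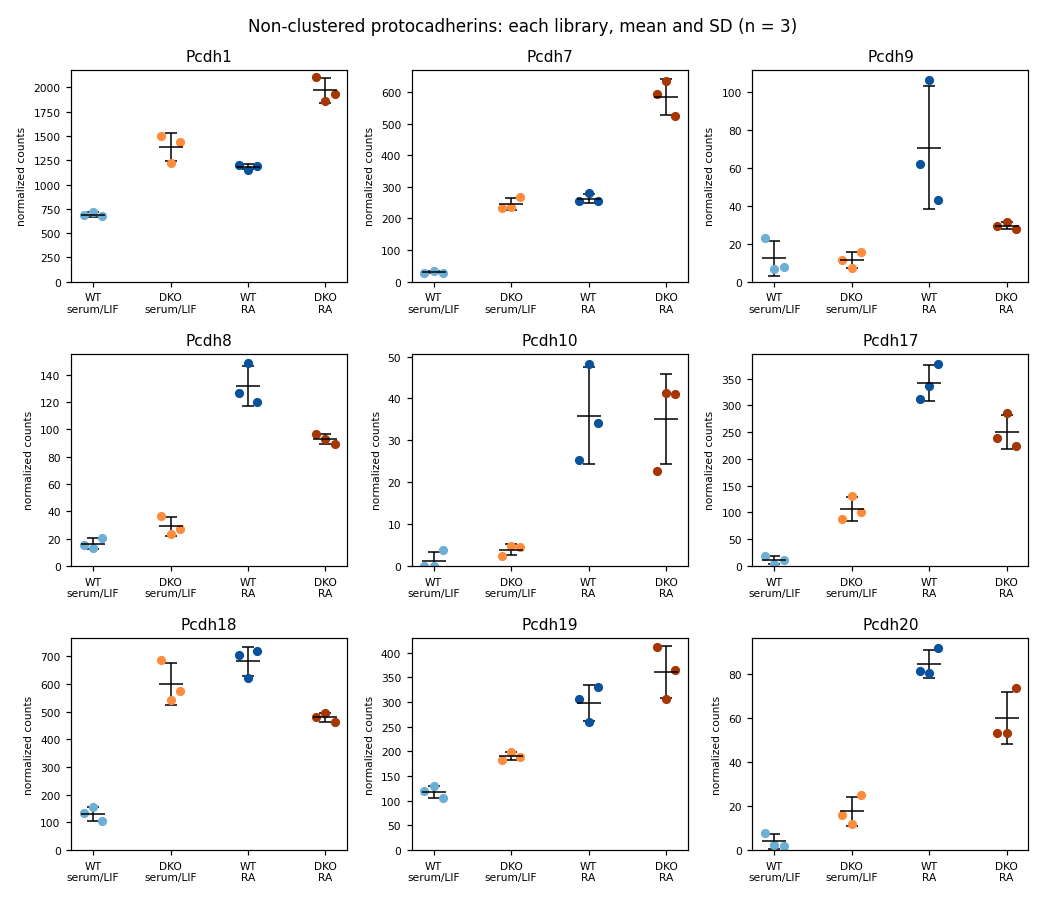
Normalized counts of 9 non-clustered genes on linear axes that start at 0 and differ between panels. Each point is a library, the long bar is the mean of 3 and the short bars mark 1 SD. The DKO libraries of Pcdh8, Pcdh17, Pcdh18 and Pcdh20 lie above those of WT in serum/LIF and below them after RA. The limma fit called the difference after RA for Pcdh18 and not for the others. Pcdh1 and Pcdh7 are higher in DKO in both conditions.

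Taken over the class, 8 of the 11 non-clustered genes that passed the filter were called higher in DKO in serum/LIF and 10 of 11 higher with RA in WT, beside 17.8% and 41.4% of all genes tested. In DKO, 8 rose with RA, beside 40.2% of all genes, and Pcdh18 fell. After RA, Pcdh1 and Pcdh7 were called higher in DKO and Pcdh9 and Pcdh18 lower. The interaction was called for Pcdh1, Pcdh7, Pcdh8, Pcdh17, Pcdh18 and Pcdh20, in each of which the genotype difference was more positive in serum/LIF. Per kilobase of exon, the scale on which genes can be compared, Pcdh1 had the highest level of the class in each group, with 146, 293, 249.9 and 417 normalized counts per kilobase in WT and DKO in serum/LIF and WT and DKO after RA. Pcdh18 followed in every group with 24.4, 112, 127 and 89.2. Pcdh17 went from 0.888 in WT in serum/LIF to 8.21 in DKO in serum/LIF, 26.3 in WT after RA and 19.2 in DKO after RA, so that in WT after RA it lay beside Pcdh8 (29.1), Pcdh19 (28.5) and Pcdh7 (24.8).

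The clustered genes need care, since several share exons. In GENCODE M21, on the same assembly, 64 of the 66 genes were matched by symbol, all but Pcdha10 and Pcdha11. Each matched Pcdha gene shares 2860 to 2864 exon bases with other Pcdha genes, each Pcdhg gene shares 2116 to 3157 with other protocadherins, Pcdhb genes share 0 to 455, and non-clustered genes share 0. The setting for reads in shared exons is not given in the sources used here. Levels of genes with the same shared exons nevertheless ranged from 17.7 (Pcdhgb1) to 1167 (Pcdhgc3) in DKO after RA, so reads in the shared exons were not added in full to every gene. Values of single Pcdha and Pcdhg genes are uncertain to the extent that such reads were split among them.

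Pcdha genes had low levels. The 3 with the highest mean were Pcdhac2, Pcdha10 and Pcdha12, and the 9 that did not pass the filter held at most 14.7 in any library. Pcdhac2, a C-type isoform and the one that serotonergic neurons use, held 15.3, 6.45 and 11.2 in WT and 27.5, 19.95 and 15.8 in DKO in serum/LIF, then 5.40, 14.0 and 1.79 in WT and 1.90, 7.35 and 1.79 in DKO after RA. It fell by 2.41 ± 0.66 on the log2 scale with RA in DKO (limma adjusted p = 0.0020), while the WT change of -0.82 ± 0.66 was not called, and the interaction was not called either (-1.59 ± 0.93, limma adjusted p = 0.211). Pcdha10 held 3.82, 0 and 0 in WT and 9.17, 11.7 and 9.01 in DKO in serum/LIF, then 5.40, 4.01 and 5.38 in WT and 19.0, 13.8 and 12.5 in DKO after RA. DKO was above WT in each condition without overlap, and the difference was called in serum/LIF (2.69 ± 0.69, limma adjusted p = 0.0037, on 4 against 26 reads) but not after RA (1.43 ± 0.69, limma adjusted p = 0.0995). Its rise with RA in WT (1.80 ± 0.69, limma adjusted p = 0.0198) was lost without replicate 2 or without replicate 3 of WT in serum/LIF, and in 3 other alternatives, with adjusted p up to 0.088. Pcdha12 held 0, 2.15 and 0 in WT and 4.59, 4.69 and 2.25 in DKO in serum/LIF and did not pass the filter.

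Pcdhb genes had low levels in serum/LIF, and 12 of the 22 passed the filter. Of these 12, 10 were called higher with RA in WT and 9 in DKO, beside 41.4% and 40.2% of all genes, and their median log2 change was 2.58 in WT and 1.92 in DKO. Except for Pcdhb3 and Pcdhb22, they passed the filter only with the help of the RA libraries. The shares called higher with RA therefore follow in part from the filter. The 10 that did not pass held 31, 30, 112 and 130 reads together in WT and DKO in serum/LIF and WT and DKO after RA. Pcdhb22 was the most abundant, with 17.2, 19.3 and 31.8 in WT and 36.7, 32.9 and 21.4 in DKO in serum/LIF, then 208, 172 and 192 in WT and 95.8, 74.4 and 61.7 in DKO after RA. The genotypes overlapped in serum/LIF (0.41 ± 0.28, limma adjusted p = 0.277), and after RA each DKO library was below each WT library, 2.47-fold in the mean (-1.31 ± 0.28, limma adjusted p = 0.00053). Its interaction was -1.72 ± 0.40 (limma adjusted p = 0.0017). Pcdhb22 made up 45.4% ± 3.03 of the Pcdhb sum in WT after RA and 26.5% ± 5.25 in DKO after RA (SD, n = 3), against 34.2% ± 9.80 and 36.9% ± 6.07 in serum/LIF.

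Pcdhb2 moved the other way. It held 3.82, 6.45 and 7.48 in WT and 9.17, 0 and 2.25 in DKO in serum/LIF, then 12.6, 11.04 and 7.18 in WT and 27.5, 36.7 and 44.7 in DKO after RA. After RA it was 3.54-fold higher in DKO (1.73 ± 0.66, limma adjusted p = 0.0388), and the interaction was 2.80 ± 0.94 (limma adjusted p = 0.0259). The first call was lost without any 1 of the 6 libraries after RA (adjusted p up to 0.129), and the second without replicate 3 of WT or 2 of DKO in serum/LIF or replicate 3 of WT or 2 or 3 of DKO after RA (adjusted p up to 0.0699). The first was also lost with a pseudocount of 0.5 and the second with edgeR. Pcdhb3 held 3.82, 6.45 and 0 in WT and 11.5, 14.1 and 11.3 in DKO in serum/LIF, then 9.91, 18.1 and 14.4 in WT and 30.3, 23.9 and 26.0 in DKO after RA. DKO was above WT in both conditions, and the call was made in serum/LIF (2.00 ± 0.60, limma adjusted p = 0.0125), but not without replicate 3 of WT there (adjusted p = 0.098), and not after RA (0.91 ± 0.60, limma adjusted p = 0.24).

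Pcdhg genes were the most abundant of the clusters and all 21 passed the filter. With RA, 16 were called higher and 2 lower in WT and 20 higher in DKO, with median log2 changes of 1.65 and 1.61. The shares of all genes called higher with RA were 41.4% in WT and 40.2% in DKO. Between genotypes 5 were called higher and 1 lower in each condition, beside 17.8% and 15.4% of all genes in serum/LIF and 22% and 20.7% after RA, so that the counts of higher genes were near the background. In serum/LIF these were Pcdhga2, Pcdhgb4, Pcdhga12, Pcdhgc3 and Pcdhgc4, with Pcdhga1 lower, and after RA they were Pcdhgb4, Pcdhgb7, Pcdhga11, Pcdhga12 and Pcdhgc3, with Pcdhgc5 lower.

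Pcdhgc3, a C-type isoform that lies after the variable exons and is expressed broadly in neurons and other cells, was the highest Pcdhg gene in every library. It held 245, 260.0 and 272 in WT and 571, 459 and 510.3 in DKO in serum/LIF, then 985, 959 and 1018 in WT and 1149, 1226 and 1126 in DKO after RA. The 4 groups did not overlap. DKO was 1.98-fold higher in serum/LIF (0.98 ± 0.08, limma adjusted p = 2.05e-09) and 1.18-fold higher after RA (0.24 ± 0.08, limma adjusted p = 0.025). The second call was lost without replicate 1 or 2 of WT or replicate 1 or 2 of DKO after RA (adjusted p up to 0.109, values from 0.20 to 0.27). RA raised Pcdhgc3 3.81-fold in WT (1.93 ± 0.08, limma adjusted p = 2.38e-16) and 2.27-fold in DKO (1.19 ± 0.08, limma adjusted p = 4.12e-12), the smallest p of the family in both RA comparisons, and the interaction was -0.74 ± 0.12 (limma adjusted p = 4.18e-05). Its share of the Pcdhg sum was 27.8% ± 0.752 in WT in serum/LIF, 38.5% ± 1.75 in DKO in serum/LIF, 29.8% ± 1.4 in WT after RA and 32.4% ± 1.08 in DKO after RA (SD, n = 3). The opposite-strand gene BC037039 overlaps 1559 of its exon bases.

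Pcdhga7 and Pcdhga2 were the next highest by mean. Pcdhga7 held 59.2, 48.4 and 76.7 in WT and 84.8, 78.6 and 45.1 in DKO in serum/LIF, then 349, 297 and 349 in WT and 309, 259.9 and 338 in DKO after RA. The genotypes overlapped in both conditions, and it rose with RA by 2.43 ± 0.21 in WT and 2.15 ± 0.21 in DKO. Pcdhga2 held 22.9, 45.1 and 29.0 in WT and 72.2, 59.9 and 58.6 in DKO in serum/LIF, then 287, 236 and 313 in WT and 353, 341 and 349.9 in DKO after RA. DKO was 1.96-fold higher in serum/LIF (1.00 ± 0.20, limma adjusted p = 0.00047), and the difference after RA, 0.33 ± 0.20, was not called although the libraries did not overlap (limma adjusted p = 0.208).

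A run of neighbours among the genes counted, near the end of the variable exons, was higher in DKO after RA. Pcdhgb7, Pcdhga11 and Pcdhga12, chosen after their values were seen, follow each other among these genes and come just before Pcdhgc3. Each Pcdhg gene shares exons with 21 other annotated protocadherins, which is more than the other Pcdhg genes counted. An annotated gene that was not counted may therefore lie between them. Pcdhga11 held 76.4, 76.3 and 76.7 in WT and 117, 102 and 96.9 in DKO in serum/LIF, then 50.4, 53.2 and 62.8 in WT and 151, 186 and 133 in DKO after RA. After RA it was 2.83-fold higher in DKO (1.48 ± 0.19, limma adjusted p = 1.21e-06), and its interaction was 1.02 ± 0.27 (limma adjusted p = 0.0060). Pcdhga12 held 50.6, 46.2 and 45.8 in WT and 112, 70.4 and 76.6 in DKO in serum/LIF, then 38.7, 29.1 and 22.4 in WT and 83.4, 73.5 and 90.4 in DKO after RA, 2.74-fold higher in DKO after RA (1.45 ± 0.26, limma adjusted p = 7.75e-05). Its difference in serum/LIF (0.82 ± 0.26, limma adjusted p = 0.0173) was lost when replicate 1 of the DKO group there was left out (adjusted p = 0.116). Pcdhgb7 held 25.2, 18.1 and 39.5 in WT and 61.6, 54.2 and 36.7 in DKO after RA, which overlap, and its call (0.90 ± 0.35, limma adjusted p = 0.0423) was lost without replicate 1 or 2 of either genotype after RA (adjusted p up to 0.186). The call was also lost with edgeR.

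The 3 neighbours together took 15.9% ± 0.970 of the Pcdhg sum in WT in serum/LIF and 16.5% ± 1.09 in DKO in serum/LIF, and then 3.40% ± 0.118 in WT after RA against 8.03% ± 0.507 in DKO after RA (SD, n = 3). While 16 of the 21 Pcdhg genes were called higher with RA in WT, Pcdhga11 and Pcdhga12 were the 2 genes called lower (-0.46 ± 0.19 and -0.68 ± 0.26, limma adjusted p = 0.0324 and 0.0211). Neither was called lower when each library was scaled to the same total, with only the 2 groups in the fit, with edgeR, or without replicate 1 of WT in serum/LIF. The edgeR fit also left out replicate 2 of WT after RA. Over all alternatives the values ran from -0.55 to -0.21 for Pcdhga11 (also lost without replicate 2 or 3 of WT in serum/LIF and replicate 1 or 2 of WT after RA) and from -0.87 to -0.42 for Pcdhga12 (also lost without replicate 3 of WT after RA). In DKO, Pcdhga11 rose with RA (0.56 ± 0.19, limma adjusted p = 0.0113), except without replicate 2 of DKO after RA (adjusted p = 0.0794), and Pcdhga12 changed by -0.04 ± 0.26. The opposite-strand gene Gm26672 overlaps 1381 exon bases of Pcdhga11, 771 of Pcdhgb7, 422 of Pcdhga12 and 2613 of Pcdhga10, so an antisense transcript and these genes cannot be told apart if strand was not used.

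Pcdhgb4, Pcdhgc4, Pcdhgc5 and Pcdhga1, also named after their values were seen, complete the genes called between genotypes. Pcdhgb4 held 22.0, 15.0 and 21.5 in WT and 40.1, 42.3 and 45.1 in DKO in serum/LIF, then 106, 65.2 and 105 in WT and 219, 197 and 233 in DKO after RA. It was higher in DKO in both conditions, 2.18-fold (1.10 ± 0.24, limma adjusted p = 0.0011) and 2.35-fold (1.25 ± 0.24, limma adjusted p = 0.00020), with an interaction of 0.15 ± 0.35. Pcdhgc5, a C-type isoform of mature neurons, held 27.7, 25.8 and 16.8 in WT and 32.1, 22.3 and 21.4 in DKO in serum/LIF, then 167, 172 and 188 in WT and 69.2, 76.2 and 74.3 in DKO after RA. The genotypes overlapped before RA, and after it DKO was 2.39-fold lower (-1.25 ± 0.26, limma adjusted p = 0.00043; interaction -1.36 ± 0.37, limma adjusted p = 0.0067).

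Pcdhgc4, a C-type isoform on which the survival of many interneurons depends, held 9.55, 20.4 and 7.48 in WT and 21.8, 27.0 and 29.3 in DKO in serum/LIF, then 132, 102 and 140.0 in WT and 117, 120.3 and 107 in DKO after RA. It was higher in DKO in serum/LIF (1.11 ± 0.31, limma adjusted p = 0.0071), a call lost with only those 2 groups in the fit (adjusted p = 0.0606), and the genotypes overlapped after RA (-0.11 ± 0.31). Its interaction (-1.22 ± 0.44, limma adjusted p = 0.0363) was lost in 9 of the fits that left out 1 library, all but those without replicate 2 of WT in either condition or replicate 1 of the DKO group in serum/LIF (adjusted p up to 0.0907). Pcdhga1 was lower in DKO in serum/LIF (-0.66 ± 0.25, limma adjusted p = 0.0427), with 91.7, 69.8 and 94.4 in WT and 44.7, 42.3 and 80.0 in DKO, which overlap. That call was lost without replicate 1 or 3 of WT, 1 or 2 of DKO in serum/LIF or 3 of DKO after RA (adjusted p up to 0.175 over the alternatives). It was also lost with only the 2 groups in the fit and with edgeR.

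**Figure D3:**
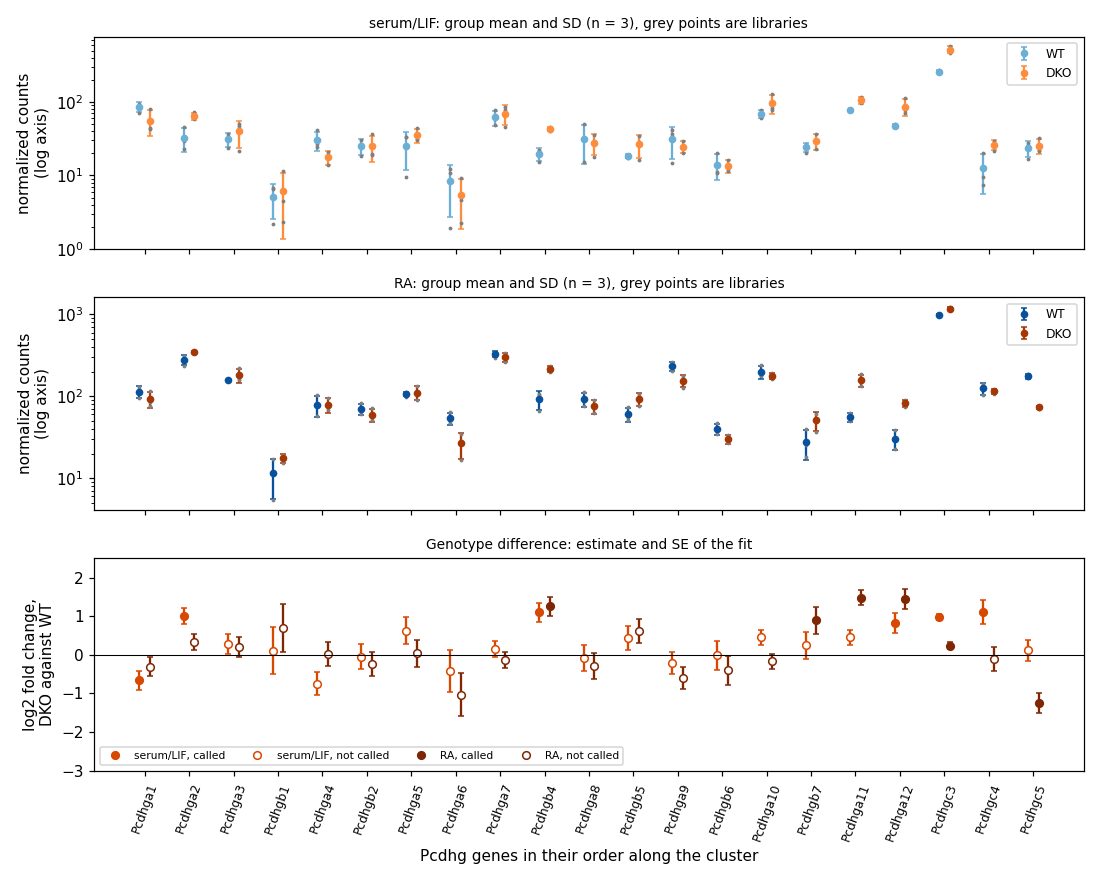
The 21 Pcdhg genes in their order along the cluster. The upper panels give normalized counts on a log axis (mean of 3 with 1 SD, grey points are libraries) in serum/LIF and after RA, and the lower panel gives the log2 fold change of DKO against WT with its SE, filled where called; after RA Pcdhga11 and Pcdhga12 lie above 0 (1.48 and 1.45) and Pcdhgc5 below it (-1.25).

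For 12 of the 46 genes the genotype difference in serum/LIF differed from that after RA by the interaction test. The interaction was called negative for 16% and positive for 14.8% of all genes tested. The 10 genes with a called negative interaction were Pcdh1, Pcdh7, Pcdh8, Pcdh17, Pcdh18, Pcdh20, Pcdhb22, Pcdhgc3, Pcdhgc4 and Pcdhgc5, and the 2 with a positive one were Pcdhb2 and Pcdhga11. Among Pcdhg genes that were not called, and named after their values were seen, Pcdhga2 (-0.67, limma adjusted p = 0.081) and Pcdhga10 (-0.61, limma adjusted p = 0.096) lay closest to the threshold on the negative side.

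**Figure D4:**
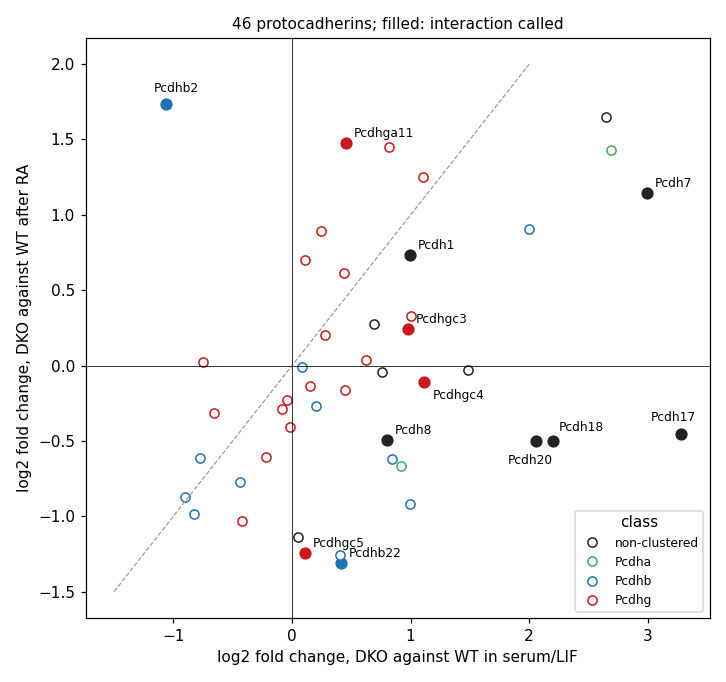
Log2 fold change of DKO against WT after RA (vertical) plotted over that in serum/LIF (horizontal) for the 46 protocadherins that passed the filter, coloured by class and filled where the interaction was called. Genes on the dashed line have the same genotype effect in both conditions; Pcdh17 (3.28 and -0.45), Pcdh18 (2.20 and -0.50) and Pcdh20 (2.05 and -0.50) lie far below it and Pcdhb2 (-1.07 and 1.73) above it.

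The other genes of the pathway were counted from lists of 12 CTCF and cohesin genes, 12 silencers of the clustered promoters, 18 cytoplasmic partners and proteases of protocadherins and 12 other non-classical cadherins, all of which passed the filter. In DKO against WT in serum/LIF, 3 looping genes were called higher and 1 lower, 2 silencers higher and 6 lower, 7 partners higher and 1 lower, and 5 of the other cadherins higher and 3 lower, beside 17.8% higher and 15.4% lower of all genes tested. The counts for looping genes were near those shares. Dnmt3a, a de novo DNA methyltransferase, was lower in DKO (-0.45 ± 0.04, limma adjusted p = 5.33e-10), and the H3K9 methylation cofactor Atf7ip changed by -0.58 ± 0.06 (limma adjusted p = 9.98e-08). The cohesin subunit Stag1 was higher by 0.38 ± 0.05, the WAVE complex subunit Cyfip2 by 0.47 ± 0.04 and the giant cadherin Fat4 by 1.78 ± 0.17 (limma adjusted p = 1.26e-06, 9.36e-09 and 1.19e-08). Ctcf itself was not called in serum/LIF (0.00 ± 0.04, limma adjusted p = 0.963).

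After RA, DKO against WT gave 4 looping genes higher and 2 lower, 3 silencers higher and 2 lower, 4 partners higher and 3 lower, and 1 of the other cadherins higher and 3 lower, beside 22% and 20.7% of all genes. The cohesin subunit Smc1a was lower (-0.38 ± 0.04, limma adjusted p = 7.64e-09), as was the calsyntenin Clstn3 (-1.06 ± 0.07, limma adjusted p = 6.38e-12), and the kinase Ptk2b, which binds Pcdha and Pcdhg tails, was higher (0.94 ± 0.11, limma adjusted p = 3.95e-07). Rest, the repressor of neuronal genes, was higher in DKO after RA (0.30 ± 0.06, limma adjusted p = 0.00061). With RA, silencers were called lower for 9 and higher for 2 of 12 in WT and lower for 8 and higher for 2 in DKO, beside 39.2% lower and 41.4% higher of all genes in WT and 38.2% and 40.2% in DKO. Among those called lower were the de novo DNA methyltransferase Dnmt3b (-3.57 ± 0.04 in WT and -3.67 ± 0.04 in DKO), Trim28 (-1.442 ± 0.03 and -1.28 ± 0.03) and Rest (-2.35 ± 0.06 and -1.86 ± 0.06). The cohesin release factor Wapl was lower with RA (-1.35 ± 0.04 and -1.14 ± 0.04), and the sheddase Adam10 was higher (1.76 ± 0.05 and 1.36 ± 0.05). Looping genes gave 2 higher and 6 lower with RA in WT and 3 and 7 in DKO, and partners 10 higher and 4 lower in WT and 11 and 3 in DKO. Of the 12 other cadherins, 8 were called higher and 3 lower with RA in WT and 7 and 3 in DKO, Fat4 rising by 6.16 ± 0.17 and 4.72 ± 0.17 and Dchs1, its binding partner, by 3.61 ± 0.11 and 2.87 ± 0.11. The interaction was called negative for 5 of the 12 other cadherins and positive for 0, beside 16% and 14.8% of all genes, including Fat4 (-1.439 ± 0.24, limma adjusted p = 6.3e-05) and Dchs1 (-0.74 ± 0.15, limma adjusted p = 0.00056). Beside the same shares, it was called negative for 7 and positive for 3 of the 18 partners. For the 12 silencers the counts were 0 negative and 5 positive, and for the 12 looping genes 2 and 4.

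Markers of cell types moved with the groups as well. The counts below stand beside these shares of all genes tested. In DKO against WT, 17.8% were called higher and 15.4% lower in serum/LIF, and 22% and 20.7% after RA. With RA, 41.4% were called higher and 39.2% lower in WT, and 40.2% and 38.2% in DKO. The interaction was called positive for 14.8% and negative for 16%. The summed level of 8 pluripotency markers ranged over 107014 to 109152 in WT and 94046 to 96657 in DKO in serum/LIF, and over 2724 to 2746 in WT and 5432 to 5756 in DKO after RA, where all 8 were called higher in DKO. The sum of 8 fibroblast or mesenchyme markers ranged over 7461 to 7533 in WT and 22302 to 23613 in DKO in serum/LIF and over 49785 to 51477 and 63498 to 66165 after RA. Of these 8, 6 were called higher in DKO in serum/LIF, and the interaction was called negative for 6. Of 10 neuron markers, 5 were called higher and 1 lower in DKO in serum/LIF, then 9 lower and 1 higher after RA. Their sum ranged over 16198 to 17703 in WT and 18187 to 18701 in DKO in serum/LIF. After RA it was lower, at 6040 to 7428 in WT and 3179 to 3415 in DKO. With RA, 5 were called higher and 3 lower in WT, beside 41.4% and 39.2% of all genes. In DKO, 1 was called higher and 6 lower, beside 40.2% and 38.2%. The sum of 8 neural progenitor markers ranged over 29079 to 30534 and 37026 to 37968 in serum/LIF and over 30586 to 31093 and 35161 to 35461 after RA. Its order follows Vim and Nes, which were higher in DKO in both conditions, while after RA 5 of the 8 were called lower in DKO and 3 higher, with a median of -1.15 and a called negative interaction for 6. After RA the mean of Pax6, for example, was 3080 in WT against 1419 in DKO, and that of Hes5 502 against 63.3. The endoderm sum ranged over 3602 to 3846 and 4707 to 5055 in serum/LIF and over 13952 to 15048 and 15826 to 16276 after RA. The endothelial sums were 5276 to 5688, 5674 to 5732, 571 to 680.4 and 715 to 880 in the 4 groups. The single endothelial markers did not all follow these sums. Of the 7 tested, 2 were called higher and 3 lower in DKO in serum/LIF (median -0.25). After RA, 1 was called higher and 2 lower in DKO (median -0.28), although the sum was higher. With RA, 2 were called higher and 4 lower in WT (median -0.88), and 0 and 6 in DKO (median -1.43). The trophoblast sums were 4276 to 4479, 5056 to 6191, 13251 to 14124 and 13494 to 14133. The trophoblast markers did not all rise with RA. Of the 7 tested, 3 were called higher and 2 lower in WT (median 0.16), and 3 higher and 1 lower in DKO (median 1.06). In DKO against WT, 3 of them were called higher and 0 lower in serum/LIF, though the median was -0.15. After RA, 2 were called higher and 1 lower in DKO (median 0.44). The blood sums were 225 to 269.7, 486 to 536, 169 to 222 and 296 to 353, with Csf1r at 0 in WT and Lyz2 at 0 in DKO in serum/LIF. Of the 5 blood markers tested, 1 was called higher and 0 lower in DKO in each condition. With RA, 1 was called higher and 2 lower in WT, and 1 and 4 in DKO. The part of these shifts in the protocadherin differences was not tested.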

How the data were processed

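RNA from WT and DKO TT2 cells was sequenced as paired-end reads, per the labels' protocols. Per the submitters' processing notes, the tools were STAR 2.7.11b after Trim Galore 0.6.10, then featureCounts of Subread 2.0.6 and DESeq2 1.44.0, on mm10. How strand, reads that hit several genes and mates were counted is not given in the sources used here. Deposited library columns hold a signal, namely whole reads divided by a size factor by the authors (100% of values within 0.01 of a whole read). The authors' log2 fold changes and adjusted p-values, named per the file headers, were used for counts of calls set beside those made here. Beyond these counts, only the value of Pcdh17 after RA is given. The repeat table was not used.

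Groups came from the sample titles and genotype labels. Values were transformed as log2(value + 1), 15750 of 17901 genes, those that reached 10 in 3 or more libraries, were kept, and limma 3.58.1 in R 4.3.3 (trend and robust settings) was fitted with 1 mean per group over all 12 libraries. The 5 contrasts were adjusted by Benjamini-Hochberg over all genes tested. Counting error and biological error enter together, and the spread is that between 3 libraries a group. The script was checked on simulated data.

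Members and gene lists were chosen with earlier results of these data known. Values in every library are given for non-clustered members past the filter, for the 3 members with the highest mean in each cluster, and for the member with the smallest adjusted p in each comparison; for the lists, up to 3 called genes a comparison could be named. Members named outside this rule are said to be. Alternatives were other pseudocounts (0.5 and 4), filters (none, or 50 or more), scalings (TMM, equal totals), a replicate block, fits of only the 2 groups compared, each library left out in turn and, chosen after seeing the data, edgeR 4.0.16 on whole reads of 11 libraries. The library left out of edgeR was replicate 2 of WT after RA, the one that stood apart. A result that moved with edgeR can therefore come from the test or from that library. A floor of 3 fragments (6 reads) stood in for a group at 0, and intervals or floors cover counting error only. Exon overlaps came from GENCODE M21 and promoters from RefSeq.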

Additional observations from a re-analysis of the deposited data

Results flagged for a closer look

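For 12 of the 46 protocadherins tested, the genotype effect differed between serum/LIF and RA by the interaction term of the limma fit. It was called negative for 10 and positive for 2, beside 16% and 14.8% of all genes tested. The term is given here as the log2 fold change of DKO against WT after RA less the one in serum/LIF. It was -3.73 for Pcdh17, -2.71 for Pcdh18, -2.55 for Pcdh20, -1.85 for Pcdh7 and -1.30 for Pcdh8, which are non-clustered genes that were higher in DKO in serum/LIF. Of these, Pcdh18 was also called lower in DKO after RA, so its genotype difference changed sign between conditions. Pcdh17 was not called there by limma, but was listed as lower in the authors' deposited result (DESeq2 adjusted p = 0.029). The interaction was -0.26 for Pcdh1, a value that 10 of 20 alternatives did not call. In the clusters it was -1.72 for Pcdhb22, -1.36 for Pcdhgc5, -1.22 for Pcdhgc4 (not called in 9 of 20 alternatives) and -0.74 for Pcdhgc3. The 2 positive values were 1.02 for Pcdhga11 and 2.80 for Pcdhb2, the latter not called in 6 of 19 alternatives.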

How the results depend on the processing

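Of 118 calls on protocadherins, 90 were kept in every alternative that gave a value: 11 of 16 for DKO against WT in serum/LIF, 8 of 12 after RA, 33 of 39 for RA in WT, 29 of 39 for RA in DKO and 9 of 12 for the interaction. No called value changed sign in any of them. The replicate numbers gave no strong pairing of the libraries (correlations of deviations from -0.0325 to 0.0507). Over the 4 comparisons of 2 groups, 5 of 12 matches were best for the library's own number. All of these were between genotypes within a condition, where the correlations were at most 0.0507. With a replicate block the called genes were 15 higher and 1 lower in serum/LIF, 8 and 3 after RA, 37 and 2 for RA in WT, 36 and 2 for RA in DKO, and 2 and 10 for the interaction, and 3 of the 118 calls were lost.

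Counts that moved by more than 1.5 times were these. Called lower in serum/LIF: 0 with only the 2 groups compared and 0 with edgeR, against 1. Called lower after RA: 9 with only the 2 groups compared, against 4. With the stricter filter, which tested fewer genes, RA gave 22 higher in WT, 23 higher and 1 lower in DKO, and the interaction gave 1 higher. Called lower with RA in WT: 0 with equal totals, with only the 2 groups compared and with edgeR, against 2. Called lower with RA in DKO: 1 with equal totals. The interaction gave 1 higher with edgeR. Except for the filter, the cause was not tested. With 1 library left out, the counts higher and lower ranged over 13 to 16 and 0 to 2 in serum/LIF, 5 to 8 and 3 to 5 after RA, 35 to 37 and 0 to 2 for RA in WT, 32 to 39 and 1 to 2 for RA in DKO, and 1 to 2 and 8 to 11 for the interaction.

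Signs turned only for log2 values that were not called. With edgeR, run without replicate 2 of WT after RA, these were Pcdh10 after RA (0.24), Pcdh9 in serum/LIF (-0.11), Pcdhac2 after RA (0.030) and Pcdh12 after RA (0.26) and for the interaction (0.066). With 1 library left out the values ranged over -0.25 to 0.25 for Pcdh10 after RA, -0.26 to 0.58 for Pcdh9 in serum/LIF and -0.018 to 0.43 for Pcdhga7 in serum/LIF. For Pcdh12 they ranged over -0.44 to 1.46 in serum/LIF, -0.55 to 0.22 after RA, -0.32 to 1.57 for RA in WT, -0.44 to 0.33 for RA in DKO and -1.503 to 0.40 for the interaction. Depth limited which members could be tested: 20 of the 66, among them 9 Pcdha and 10 Pcdhb genes, did not pass the filter.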
